A study of Mus musculus with 6 samples.

Results

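The arms of the miR-199 and miR-214 precursors were measured in mouse eye tissue (retinal pigment epithelium, or RPE, with choroid and sclera) after laser burns that set off choroidal neovascularization (CNV), the growth of new vessels from the choroid. They were taken as every name in the count tables that begins with mmu-miR-199a-, mmu-miR-199b- or mmu-miR-214-, which gave 6 names of 2334 small RNAs listed, 1836 of them microRNAs (miRNAs) and 498 fragments of tRNAs (tsRNAs). The names are mmu-miR-199a-5p, mmu-miR-199a-3p, mmu-miR-199b-5p, mmu-miR-199b-3p, mmu-miR-214-3p and mmu-miR-214-5p, where mmu stands for the mouse and is left out in most of the text. In all 6 libraries miR-199a-3p and miR-199b-3p carried the same count, so there were 5 distinct measurements. The CNV group was 3 libraries from eyes given 25 laser spots each (532 nm, 100 mW, 0.1 s, 50 µm) and taken 7 days later, and the Control group was 3 libraries from age-matched mice with no laser. The mice were males of 7 to 8 weeks, with no strain or genotype named in the labels, and each library came from a pool of 4 eyes. Whether the pools came from separate mice is not stated, so a p-value here speaks of the spread among pools, which may be partly technical.

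A miRNA precursor is a hairpin whose left (5p) and right (3p) arms can each be loaded into the silencing complex, where bases 2 to 8, the seed, choose the target mRNAs. The Mir199a-2 and Mir214 hairpins are carried together by the noncoding transcript Dnm3os, which is expressed in mesenchymal cells and is needed for normal growth of the mouse skeleton. In fibroblasts miR-199a-5p is known to repress caveolin-1 and so to favour TGF-beta signalling, miR-199a-3p is known as a repressor of mTOR and Met, and miR-214-3p of Ezh2 and the angiogenic regulator Quaking. These roles come from other tissues and species as well as from the mouse. The series holds small RNAs from whole tissue, so which cells made the miRNAs was not measured, and fewer cells of a type and less RNA per cell cannot be told apart.

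The mature sequences show which of the names found can be told apart by their reads. RefSeq's miRNA table (GRCm38.p6) held 5 of the 6 names, all but miR-199b-5p, and seeds are in capitals.
miR-199a-5p: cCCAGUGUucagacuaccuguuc
miR-199a-3p: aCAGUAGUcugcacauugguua
miR-199b-3p: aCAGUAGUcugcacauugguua
miR-214-3p: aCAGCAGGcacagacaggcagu
miR-214-5p: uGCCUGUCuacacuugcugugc
The sequences of miR-199a-3p and miR-199b-3p are identical over all 22 bases, so their common count is the output of 3 genes and cannot be divided among them. The other 3 arms shown each had a seed that no other arm shown had. The seed of miR-199b-5p was not compared, so whether it is that of its paralog miR-199a-5p is not shown here. Outside the family, the table held a single miRNA with any of these seeds, miR-761, which shares that of miR-214-3p, and its count was 0 or 1 in every library.

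The hairpins show where the arms lie, and they are printed because the results below turn on arms of the same hairpin and of its paralogs. Mature arms are in capitals, in RefSeq's sequence of GRCm38.p6.
Mir199a-2: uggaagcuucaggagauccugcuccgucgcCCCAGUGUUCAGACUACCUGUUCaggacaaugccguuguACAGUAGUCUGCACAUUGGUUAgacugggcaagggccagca
Mir214: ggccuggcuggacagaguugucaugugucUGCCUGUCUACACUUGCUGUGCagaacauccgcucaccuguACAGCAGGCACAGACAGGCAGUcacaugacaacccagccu
Mir199a-1: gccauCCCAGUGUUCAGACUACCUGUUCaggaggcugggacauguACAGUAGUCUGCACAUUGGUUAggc
Mir199a-2 lies at chr1:162217814-162217923 and Mir214 at chr1:162223368-162223477, both on the plus strand, with 5444 bases between them. In the GENCODE M21 annotation of GRCm38 both are within an exon of Dnm3os and, on the opposite strand, within an intron of the dynamin gene Dnm3. Mir199a-1, the other source of the same miR-199a arms, is at chr9:21496495-21496564 on the minus strand, antisense to an intron of Dnm2. Mir199b is at chr2:32318460-32318569 on the plus strand, antisense to an intron of Dnm1. By these loci, miR-214 is made from a single gene, miR-199a-5p from 2 genes and miR-199 3p from 3. Whether the count of miR-199a-5p also holds reads of miR-199b-5p is not known, since the treatment of reads matching both is not stated.

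The libraries held 5321436 to 5820315 counts in the CNV group and 5057142 to 12839386 in the Control group, where Control replicate 2 was the deepest. Levels below are CPM, the counts relative to the library total (CPM, the usual scale for libraries of unequal depth) after TMM scaling (trimmed mean of M-values, which sets the libraries to a common level). The members had 834 to 496806 counts in a library, so counting error was small beside the spread between pools. The miRNAs that mark RPE (miR-204 and miR-211) were counted in every library, and so were those of photoreceptors. The summed level of the 4 photoreceptor miRNAs was 24752 to 49508 CPM in CNV libraries and 49378 to 75839 CPM in Control libraries.

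The miR-199 arms were among the abundant miRNAs of this tissue and miR-214 was a minor product. By count among all miRNA names, the 3p arm of miR-199 ranked 5 to 7 in CNV libraries and 7 to 9 in Control libraries, and miR-199a-5p ranked 16 to 21 in CNV and 20 to 28 in Control. The paralog miR-199b-5p ranked 41 to 47 in CNV and 42 to 45 in Control libraries. The main arm of the other hairpin, miR-214-3p, ranked 72 to 79 in CNV and 83 to 92 in Control, and miR-214-5p 150 to 163 in CNV and 153 to 166 in Control. The order of the 5 levels was the same in each of the 6 libraries, and no neighbours in it overlapped. With the shared 3p count taken once, the family made up 6.45%, 7.17% and 6.73% of miRNA counts in CNV replicates 1 to 3. The same share was 6.0%, 6.06% and 4.99% in Control replicates 1 to 3. Adapter ligation favours some miRNA ends over others, so the order of the counts need not be the order of molecules in the tissue.

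The comparison of CNV with Control asked whether the levels of these arms differ 7 days after laser. The largest difference in the family was that of miR-214-3p, followed by miR-199a-5p and the shared miR-199 3p arm, and all 3 were higher in every CNV pool than in every Control pool, the 3p arm with TMM scaling but not with total counts alone. Levels of miR-199b-5p and miR-214-5p overlapped between the groups. None of the 6 names passed edgeR's quasi-likelihood test after Benjamini-Hochberg adjustment over the 997 small RNAs tested, at a threshold of 0.05. In that test 3 small RNAs passed, all of them miRNAs, or 0.301% of those tested. Before adjustment, 3 of the 5 distinct members had a p under 0.05 and were higher in CNV, as did 8.5% of the 541 tested miRNAs.

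**Figure D1:**
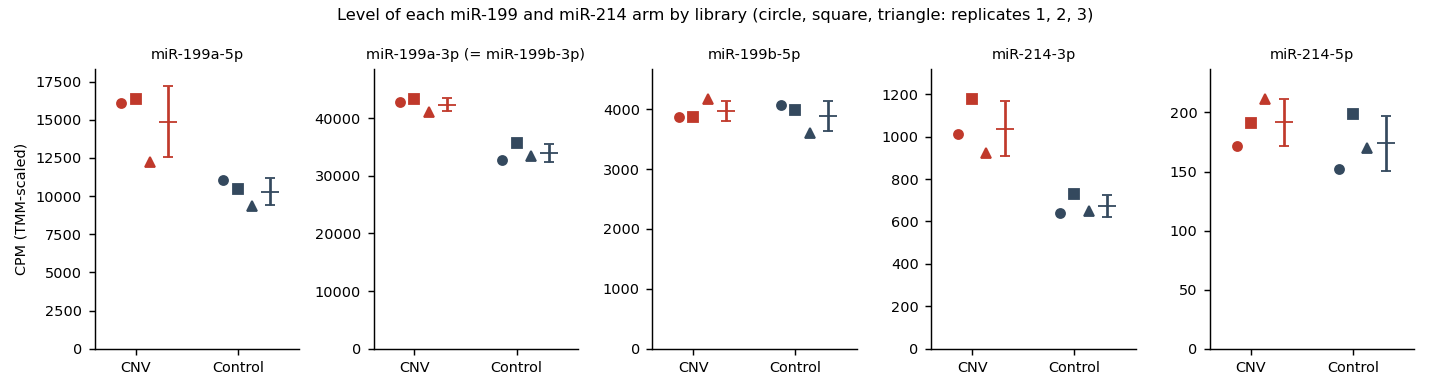
Level of each distinct arm in CPM after TMM scaling (vertical axes start at 0), with CNV libraries in red on the left and Control libraries in dark blue on the right. Points are libraries and bars are mean and SD (n = 3); miR-199a-5p, the shared 3p arm and miR-214-3p do not overlap between groups, while miR-199b-5p and miR-214-5p do.

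The scar-associated arm mmu-miR-214-3p, the main product of its hairpin, was at 1013, 1176 and 921 CPM in CNV replicates 1 to 3, against 641, 731 and 648 CPM in Control replicates 1 to 3. Every CNV pool lay above every Control pool, and CNV replicate 2 was the highest. The mean was 1036 ± 129 CPM in CNV and 673 ± 50.1 CPM in Control (SD, n = 3 each). The log2 fold change was 0.62 (SE 0.16, 95% confidence interval 0.26 to 0.98), with an unadjusted p of 0.00352 and an adjusted p of 0.127 in edgeR's quasi-likelihood test. DESeq2 called it higher (log2 0.59, adjusted p 0.0294), and it called 2.96% of the 541 tested miRNAs higher. Over the 15 alternative analyses the adjusted p ran from 0.0294 to 0.572, and that of DESeq2 was the only one under 0.05.

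The opposite arm mmu-miR-214-5p did not show that difference. It was at 172, 191 and 211 CPM in CNV replicates 1 to 3, against 153, 198.9 and 170 CPM in Control replicates 1 to 3. The groups overlapped, with Control replicate 2 above CNV replicates 1 and 2. The log2 fold change was 0.14 (SE 0.17, 95% confidence interval -0.24 to 0.52, adjusted p 0.722 in edgeR's quasi-likelihood test), and without CNV replicate 3 it was -0.01.

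Both arms are cut from a single hairpin, and their ratio within a library, like any such ratio, does not depend on how libraries are scaled. There were 5.88, 6.14 and 4.36 counts of miR-214-3p for each count of miR-214-5p in CNV replicates 1 to 3, and 4.20, 3.67 and 3.80 in Control replicates 1 to 3. Each CNV pool was above each Control pool, with CNV replicate 3 close to the Control pools. The mean ratio was 5.46 ± 0.962 in CNV and 3.89 ± 0.275 in Control (SD, n = 3 each). The group means of the log2 ratios differed by 0.47. A two-sided exact permutation test gave p = 0.1, the smallest that 3 against 3 can give, and 0.333 after Benjamini-Hochberg adjustment over the 5 ratios compared. Among all 156 precursors with both arms tested, 8.33% had a 3p over 5p ratio that was higher in every CNV pool than in every Control pool, and the miR-214 difference ranked 32 by size in either direction.

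**Figure D2:**
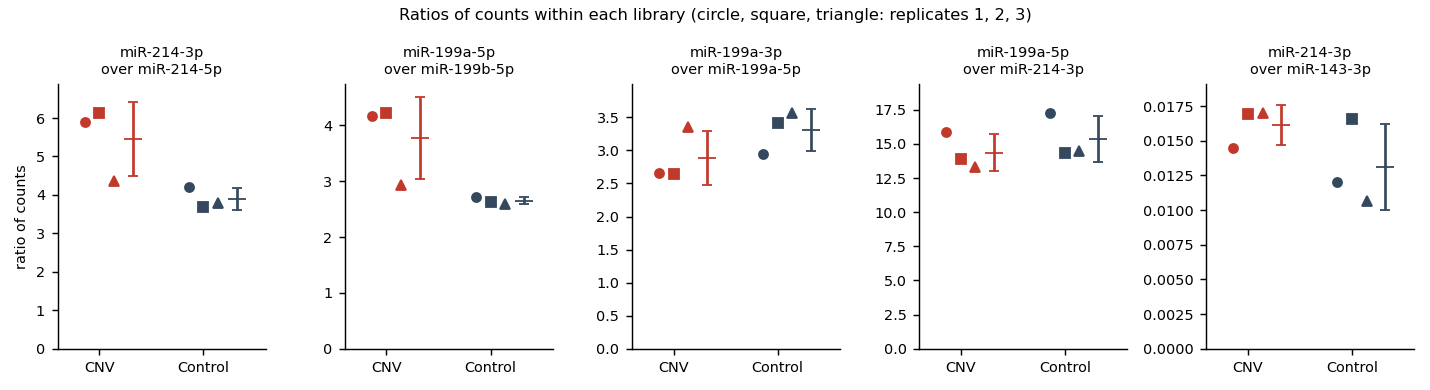
Ratios of counts within each library (vertical axes start at 0), CNV in red on the left and Control in dark blue on the right. Points are libraries and bars are mean and SD (n = 3); miR-214-3p over miR-214-5p and miR-199a-5p over miR-199b-5p are higher in all CNV libraries, with CNV replicate 3 (triangle) the nearest to Control, and the other 3 ratios overlap.

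The next largest difference was that of mmu-miR-199a-5p, the caveolin-1 repressor made from Mir199a-1 and from the Dnm3os hairpin. It was at 16093, 16345 and 12226 CPM in CNV replicates 1 to 3, against 11078, 10462 and 9359 CPM in Control replicates 1 to 3. The groups did not overlap, and CNV replicate 3 was the lowest of its group. The mean was 14888 ± 2309 CPM in CNV and 10300 ± 871 CPM in Control (SD, n = 3 each). The log2 fold change was 0.53 (SE 0.16, 95% confidence interval 0.16 to 0.91), with an unadjusted p of 0.0108 and an adjusted p of 0.177 in edgeR's quasi-likelihood test.

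Its paralog mmu-miR-199b-5p is made from Mir199b, antisense to an intron of the dynamin gene Dnm1. This arm was at 3866, 3869 and 4165 CPM in CNV replicates 1 to 3, against 4078, 3987 and 3602 CPM in Control replicates 1 to 3. The groups overlapped, and the highest and the lowest pools were CNV replicate 3 and Control replicate 3. The log2 fold change was 0.03 (SE 0.14, 95% confidence interval -0.28 to 0.34, adjusted p 0.936 in edgeR's quasi-likelihood test). It was -0.12 when libraries were scaled by their total counts alone.

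The same counts of the paralogs can be put as a ratio within each library, which does not depend on scaling and is no further evidence of their contrast. There were 4.16, 4.22 and 2.94 counts of miR-199a-5p for each count of miR-199b-5p in CNV replicates 1 to 3, and 2.72, 2.62 and 2.60 in Control replicates 1 to 3. The Control pools lay close together and every CNV pool was above them, CNV replicate 3 by the least. The mean ratio was 3.77 ± 0.727 in CNV and 2.65 ± 0.0623 in Control (SD, n = 3 each). The group means of the log2 ratios differed by 0.49 (two-sided exact permutation p = 0.1, the smallest possible, and 0.35 adjusted over 7 ratios). This ratio was chosen after the levels of its members were seen, so its p is a description. Put as a share, miR-199b-5p made up 19.4%, 19.1% and 25.4% of the 5p counts of miR-199 in CNV replicates 1 to 3, and 26.9%, 27.6% and 27.8% in Control replicates 1 to 3. The arms are close in sequence, and the sources used here do not say how the authors assigned reads that match more than a single miRNA.

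The shared 3p arm of miR-199 (mmu-miR-199a-3p and mmu-miR-199b-3p), known as a repressor of mTOR and Met, had a smaller fold change than miR-199a-5p. It was at 42754, 43255 and 40985 CPM in CNV replicates 1 to 3, against 32678, 35716 and 33409 CPM in Control replicates 1 to 3. The groups did not overlap on this scale, whereas scaled by total counts alone Control replicate 2 (38694 CPM) lay above CNV replicate 1 (37754 CPM). The mean was 42332 ± 1193 CPM in CNV and 33934 ± 1586 CPM in Control (SD, n = 3 each). The log2 fold change was 0.32 (SE 0.13, 95% confidence interval 0.02 to 0.62), with an unadjusted p of 0.0378 and an adjusted p of 0.257 in edgeR's quasi-likelihood test.

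The 3p counts of all 3 miR-199 genes can be set against the 5p counts of the same genes. Against miR-199a-5p alone there were 2.66, 2.65 and 3.35 counts of the 3p arm in CNV replicates 1 to 3, and 2.95, 3.41 and 3.57 in Control replicates 1 to 3. The groups overlapped, since CNV replicate 3 was above Control replicate 1 (two-sided exact permutation p = 0.2, adjusted over 5 ratios 0.333). Against the sum of miR-199a-5p and miR-199b-5p, a ratio added after the values were seen, the counts were 2.14, 2.14 and 2.50 in CNV replicates 1 to 3, and 2.16, 2.47 and 2.58 in Control replicates 1 to 3. That ratio overlapped as well, with a log2 difference of -0.09 (two-sided exact permutation p = 0.5, adjusted over 7 ratios 0.5). Against miR-199b-5p alone, the 3p arm was higher in every CNV pool than in every Control pool (log2 difference 0.29). The same held for 8.33% of the 156 precursors with both arms tested, and this difference ranked 66 by size in either direction. No p was computed for it.

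Arms of the hairpins on Dnm3os were compared in the same way, although the count of miR-199a-5p belongs to Mir199a-1 as well. There were 15.9, 13.9 and 13.3 counts of miR-199a-5p for each count of miR-214-3p in CNV replicates 1 to 3, and 17.3, 14.3 and 14.4 in Control replicates 1 to 3. The groups overlapped (log2 difference -0.09, two-sided exact permutation p = 0.5, adjusted over 5 ratios 0.5), and leaving out a library moved the log2 difference between -0.17 and -0.0063, which does not show that the 2 miRNAs move alike. Across the 6 libraries the log2 levels of miR-199a-5p and miR-214-3p had a Pearson r of 0.92, and those of miR-214-3p and the shared 3p arm 0.98. For miR-199b-5p the r with miR-199a-5p was 0.14 and with miR-214-3p 0.12. These correlations are a description over 6 libraries that hold the group difference and share their scaling.

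With TMM scaling 5 of the 5 distinct members had a positive log2 fold change, where 51.2% of tested miRNAs did, and scaled by total counts alone 3 of the 5 did, where 33.3% of tested miRNAs did. With TMM their median was 0.32, where that of all tested miRNAs was 0.01. Groups did not overlap for 3 of the 5 with TMM scaling, all higher in CNV, as for 12.8% of tested miRNAs. Scaled by total counts alone it was 2 of the 5, miR-199a-5p and miR-214-3p, and 8.13% of tested miRNAs. That scaling moved the median of all tested miRNAs to -0.14. Relative to the miRNA median, the log2 fold change of miR-214-3p was 0.61 under either scaling, that of miR-199a-5p 0.52 with TMM and 0.50 with total counts, that of the shared 3p arm 0.30 and 0.31, that of miR-214-5p 0.12 and 0.14, and that of miR-199b-5p 0.01 and 0.02.

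**Figure D3:**
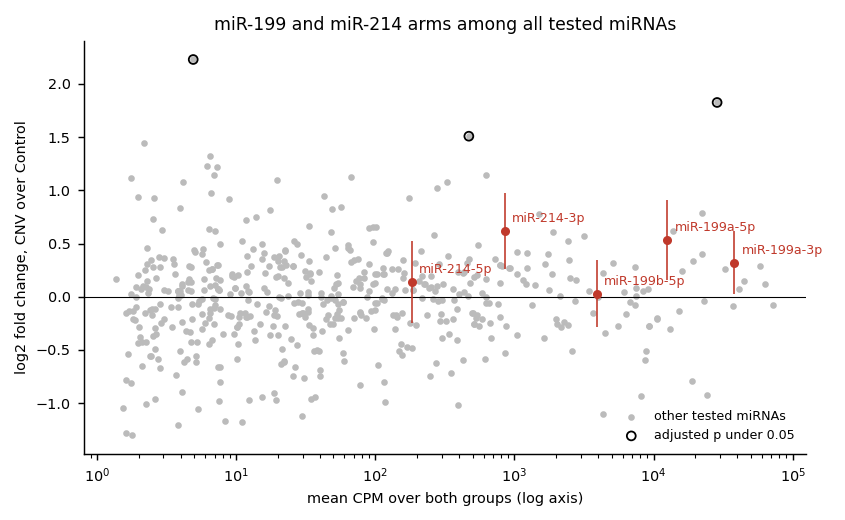
Log2 fold change of CNV over Control against mean CPM over both groups (log axis) for the 541 tested miRNAs. Red points are the 5 distinct arms with 95% confidence intervals, grey points other miRNAs, and open circles the 3 that passed the adjusted test; none of the red points passed, and the intervals of miR-199b-5p and miR-214-5p span 0.

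Other miRNAs of connective and vascular tissue give the setting for these values. None of the 4 arms of miR-143 and miR-145a, which mark smooth muscle and pericytes, passed edgeR's test, and 3 of the 4 were positive with a median log2 fold change of 0.16. Among them miR-143-5p was at 299 ± 67.2 CPM in CNV and 381 ± 39.3 CPM in Control, and miR-143-3p at 64481 ± 8997 CPM in CNV and 52751 ± 8398 CPM in Control (SD, n = 3 each). There were 0.0145, 0.0169 and 0.0170 counts of miR-214-3p for each count of miR-143-3p in CNV replicates 1 to 3, and 0.0120, 0.0166 and 0.0106 in Control replicates 1 to 3. The groups overlapped (log2 difference 0.33, two-sided exact permutation p = 0.2, adjusted over 5 ratios 0.333). The ratio of miR-199a-5p to miR-143-3p was 0.231, 0.235 and 0.226 in CNV replicates 1 to 3 and 0.208, 0.237 and 0.154 in Control replicates 1 to 3, and overlapped too (log2 difference 0.23, two-sided exact permutation p = 0.4, adjusted over 5 ratios 0.5). Both differences depended on single Control pools. The log2 difference of miR-199a-5p over miR-143-3p was 0.37 without Control replicate 2 and 0.053 without Control replicate 3, and that of miR-214-3p over miR-143-3p was 0.51 and 0.19 without the same pools. With 3 pools a group these tests cannot give a p under 0.1. Whether miR-199a-5p or miR-214-3p differs from the mural miRNA in its change was therefore not settled.

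Of 8 tested miRNAs listed as induced in scarring tissue or by TGF-beta, 1 rose, miR-21a-5p (44686 ± 6145 CPM in CNV and 12615 ± 3812 CPM in Control, SD, n = 3 each, log2 1.82, adjusted p 0.0183 in edgeR's quasi-likelihood test), where 0.301% of all small RNAs tested were called. That call of miR-21a-5p ended in edgeR's test with a minimum mean of 20 CPM (adjusted p 0.0545) and without CNV replicate 1 (0.0866), CNV replicate 2 (0.129), Control replicate 2 (0.236) or Control replicate 3 (0.171). None of the 8 fell by that test. By sign, 4 of the 8 were positive and 4 negative, and their median log2 fold change was 0.03. The second by p in that list, the rare opposite arm miR-21a-3p, was at 5.0 ± 2.05 CPM in CNV and 2.90 ± 0.817 CPM in Control. None of 5 miR-29 arms, known repressors of collagen genes, passed, and 4 of the 5 were negative with a median of -0.36. Of these miR-29c-3p was at 128 ± 13.1 CPM in CNV and 175 ± 27.3 CPM in Control, and miR-29c-5p at 31.0 ± 4.37 CPM in CNV and 39.8 ± 3.30 CPM in Control. The summed level of the 5 miR-29 arms overlapped between groups, at 7569 to 10508 CPM in CNV libraries and 7878 to 10625 CPM in Control libraries. None of 4 cartilage miRNAs passed, 3 of the 4 were positive, and the median was 0.21. There miR-455-3p was at 318 ± 47.9 CPM in CNV and 213 ± 27.9 CPM in Control, and miR-455-5p at 530 ± 33.0 CPM in CNV and 414 ± 85.3 CPM in Control.

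Marker miRNAs of other cell types are given beside these values, and none of those in the 8 lists that follow passed edgeR's test. The summed level of 4 leukocyte miRNAs was 612 to 911 CPM in CNV libraries and 463 to 581 CPM in Control libraries, with 3 of the 4 positive and a median log2 fold change of 0.75. Photoreceptor, neuron and RPE lists were negative for 4 of 4, 5 of 5 and 4 of 4 miRNAs, with medians of -0.93, -0.59 and -0.44. The summed level of the neuron list was 8307 to 13329 CPM in CNV libraries and 14958 to 21537 CPM in Control libraries, and that of the RPE list 4573 to 6546 CPM in CNV and 6841 to 7042 CPM in Control libraries. The endothelial arms of miR-126a had a median of -0.18, the red cell list 0.38, the skeletal muscle list 0.17 and the surface epithelium list 0.20, and their summed levels overlapped between groups. The sums of the photoreceptor list overlapped too, by a narrow margin, and those of the leukocyte, neuron and RPE lists did not. None of these miRNAs was at 0 in any library. The part of these cell types in the values of miR-199 and miR-214 was not tested.

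**Figure D4:**
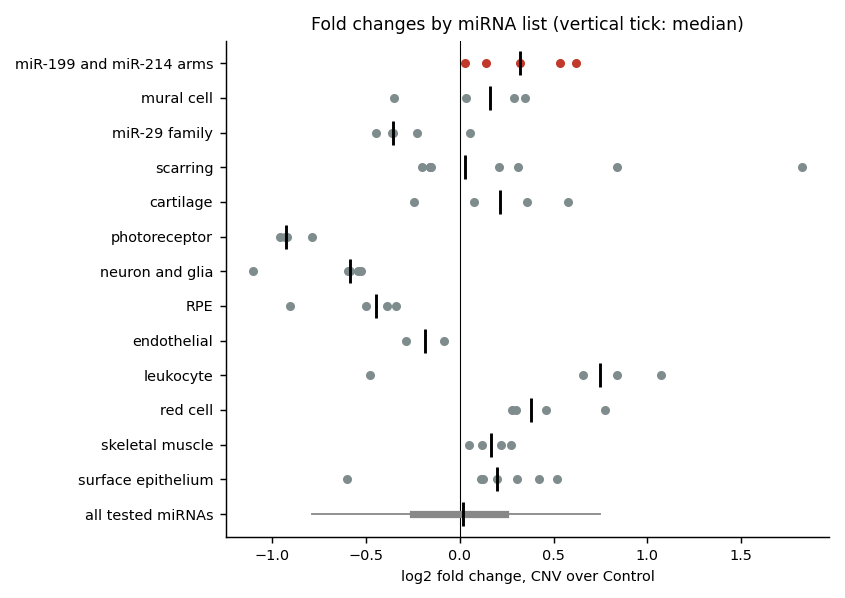
Log2 fold change of CNV over Control for the 5 distinct miR-199 and miR-214 arms (red) and for the tested members of 12 other lists (grey points), with a vertical tick at each median. The lowest row gives all tested miRNAs, with a thick bar from the 25th to the 75th percentile and a thin bar from the 5th to the 95th; the median of the red points is 0.32, between those of the red cell list (0.38) and the cartilage list (0.21).

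The miRNAs whose pattern over the 6 libraries was most like that of the members were sought among 368 other miRNAs with a mean of at least 10 CPM, by Pearson r of log2 levels. Those nearest to miR-199a-5p were the blood cell miRNA miR-142a-5p (r = 0.995), the p53 target miR-34a-5p (0.98), miR-15b-5p and miR-15b-3p (both 0.97) and miR-221-5p (0.95). The level of miR-142a-5p was 442 ± 132 CPM in CNV and 210 ± 35.0 CPM in Control (SD, n = 3 each). Those nearest to miR-214-3p were the myeloid miR-223-3p (0.98), miR-34a-5p (0.97), miR-34c-5p (0.96), miR-541-5p (0.95) and the inflammatory miR-155-5p (0.95). The level of miR-223-3p was 123 ± 10.5 CPM in CNV and 77.9 ± 2.04 CPM in Control (SD, n = 3 each). Both miR-142a-5p and miR-223-3p belong to the leukocyte list, where miR-150-5p went the other way. It was at 152 ± 16.9 CPM in CNV and 213 ± 26.4 CPM in Control (log2 -0.48, adjusted p 0.214 in edgeR's quasi-likelihood test), with no overlap between groups. With 6 libraries in 2 groups, many miRNAs that differ between the groups have a high r, and these values are a description.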

How the data were processed

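Small RNA libraries (inserts of 14 to 40 nt, NextSeq 500, per the labels' protocols) were made from pools of 4 eyes. The authors' deposited tables give a raw count per mature miRNA and tsRNA. The submitters' processing notes name Bowtie. Its settings, the genome build and the treatment of reads matching more than a single miRNA are not stated there or in the labels. Groups and replicate numbers come from the sample titles. In R 4.3.3, small RNAs were kept by filterByExpr of edgeR 4.0.16 (minimum count 10, minimum total 15), which left 997, among them 541 miRNAs and all 6 names. Both classes were scaled with TMM and fitted together with no covariate, and CNV was tested against Control by the quasi-likelihood test of edgeR, with p-values adjusted by Benjamini-Hochberg over all 997. SE were taken from the fold change and its F value. DESeq2 1.42.0 and limma-voom (limma 3.58.1) were alternatives, as were other scalings and filters, a replicate block and leaving out each library. Ratios used counts plus 0.5 and two-sided exact permutation tests.

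Of the other miRNAs, the text names those of each connective tissue list with the 2 smallest p. It also names the 5 most like miR-199a-5p and miR-214-3p. The lists of other cell types are given as sums and medians, apart from miR-142a-5p, miR-223-3p and miR-150-5p of the leukocyte list. The choice of list members with the smallest p was not printed for those lists. The members and lists were chosen with earlier results of these data known.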

Additional observations from a re-analysis of the deposited data

How the results depend on the processing

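The log2 fold changes of miR-214-3p, miR-199a-5p and the shared miR-199 3p arm were positive in all alternatives run, from 0.47 to 0.69, from 0.37 to 0.60 and from 0.17 to 0.39. The number of members called was 0, and 1 with DESeq2 (miR-214-3p). It was 0 without each library in turn. The sign of miR-199b-5p turned with relative log expression factors (-0.0050), DESeq2 (-0.0050), total counts (-0.12) and no filter on low counts (-0.056), and without a library it ran from -0.092 to 0.073. That of miR-214-5p turned with total counts (-0.00078), and without a library it ran from -0.014 to 0.20. The cause was not tested.

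The number of small RNAs called was 3, against 38 with DESeq2, 88 with no filter on low counts, 0 with a minimum mean of 20 CPM, 6 with miRNAs alone, 36 with the replicate block, and 0 to 24 without a library (24 without CNV replicate 3, 0 without CNV replicate 1, CNV replicate 2, Control replicate 2 or Control replicate 3). The deviations of same-numbered pools from their group means had correlations of 0.29, 0.03 and 0.17, so the numbers were not taken to pair the pools. Control replicate 2 correlated better with CNV replicate 3 (0.15) than with its own number. With the replicate block no member was called. The 7 ratios kept their sign in all alternatives, and the log2 difference of miR-214-3p over miR-214-5p ran from 0.38 to 0.63 without a library and that of miR-199a-5p over miR-199b-5p from 0.40 to 0.66. With 3 pools a group these ratios cannot give a p under 0.1.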
